A study of Mus musculus with 16 samples.

Results

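The response of the 129S6/SvEvTac mouse aorta to angiotensin II (AngII) hypertension was measured by RNA sequencing of whole descending thoracic aorta, the arterial segment behind the heart and lungs. The comparison used 8 of the 16 samples of the series: 4 from 129S6/SvEvTac mice with AngII-induced hypertension (replicates 1, 2, 4 and 5) and 4 from 129S6/SvEvTac controls (replicates 1 to 4). The other 8 samples are C57BL/6J aortas, 4 with AngII and 4 controls, and were used to fit the spread between samples and to test whether a response differed between the strains. Both strains are inbred lines with no engineered allele named in the labels. All genes with enough counts to be tested over the 16 samples entered the comparison, 17125 of the 52636 in the table. A gene could pass through its C57BL/6J counts alone, as Cd209a and Klrb1c did, with no counts in any 129S6/SvEvTac sample. Shares over all genes tested and list sizes below include such genes. With the 129S6/SvEvTac samples alone 15749 genes were tested. The AngII dose, the duration, the kind of control treatment, and the age and sex of the mice are not stated in the labels, nor is it stated that each sample is 1 animal, and p-values therefore describe sample-to-sample spread, which may be technical.

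Angiotensin II is a peptide hormone that constricts arteries and raises blood pressure through its type 1 receptor. A large artery under raised pressure is known to thicken its wall: smooth muscle cells of the media and fibroblasts of the adventitia secrete collagens, elastic fibre proteins and proteoglycans, which are folded in the endoplasmic reticulum, exported, trimmed and crosslinked outside the cell. Smooth muscle cells can also lose part of their contractile apparatus, and wall cells can divide.

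Total counts ran from 42116120 to 50792780 in 7 of the 8 libraries and reached 121573945 in AngII replicate 5. The first principal component, with 27.5% of the variance, separated the AngII libraries from the controls. Smooth muscle markers summed to 36324 to 45757 CPM (counts scaled to a common library total) with AngII and 38078 to 41126 CPM in controls, and fibroblast, endothelial and macrophage markers were all present, as the labelled tissue implies. Heart muscle RNA was uneven: Myh6, the cardiac myosin heavy chain, stood at 293 CPM in AngII replicate 5 and 142 CPM in control replicate 3, against 4.18 to 39.0 CPM in the other libraries. In whole tissue, fewer cells of a type and less RNA per cell cannot be told apart.

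AngII changed 2087 genes (12.2% of those tested) at an adjusted p below 0.05. Every adjusted p below, unless another tool is named, comes from edgeR's quasi-likelihood test with Benjamini-Hochberg adjustment over all 17125 genes. Of these genes 1321 rose (7.71%) and 766 fell (4.47%), with a median log2 fold change of 0.67 among the rises and -0.59 among the falls. At least 4-fold changes were found for 178 rises and 23 falls. The balance rests on the scaling. With scaling by library size only, the median over all genes moved on the log2 scale from 0.003 to -0.157, and 755 genes rose against 2246 that fell, and 754 of the 1321 rises and all 766 falls were still called in their direction. Without AngII replicate 5 and control replicate 3, 653 rose and 384 fell.

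Values of a gene are given below for AngII replicates 1, 2, 4 and 5 and for control replicates 1 to 4, in that order, as CPM on the TMM-adjusted total. CPM do not account for gene length, so levels are compared between samples and not between genes. Log2 fold changes are AngII minus control with their standard error. The groups did not overlap for 23% of all genes tested, and they did not overlap for any called gene whose values are given below.

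**Figure D1:**
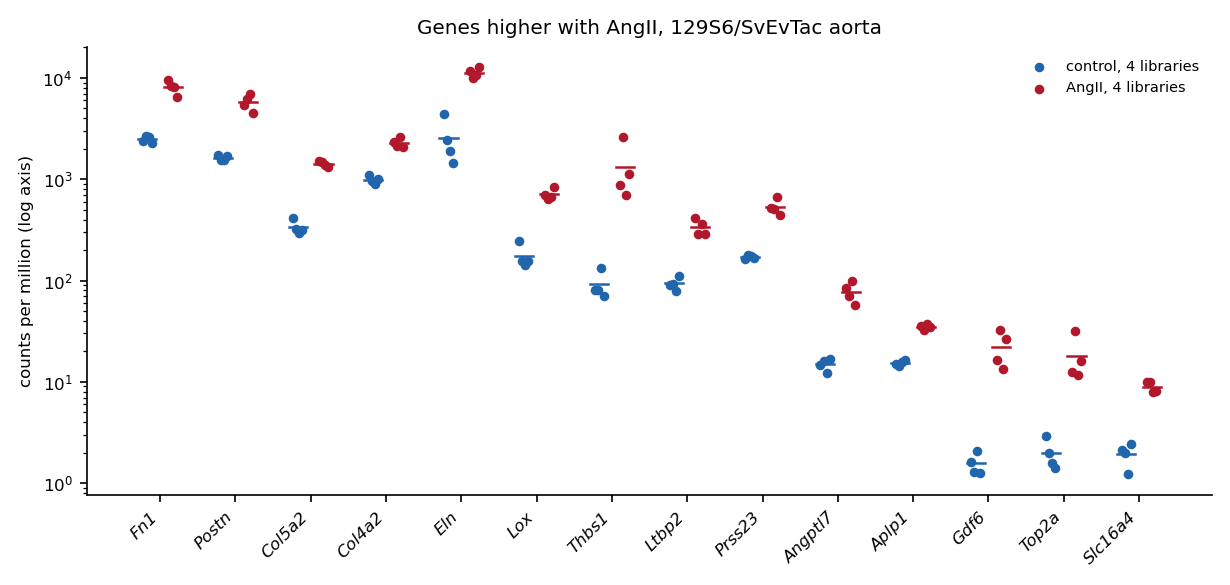
CPM (log axis) of 14 genes that rose with AngII in 129S6/SvEvTac aorta. Each point is 1 library, 4 with AngII in red and 4 controls in blue, with a line at the group mean. Every AngII point of a gene lies above all its control points, and Thbs1 and Top2a have 1 high AngII library, replicate 2.

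Many structural matrix genes rose. Fibrillar collagens, which form the load-bearing ropes of the wall, had 7 of 11 genes higher and none lower (median 1.71 on the log2 scale, against 0.003 over all genes). Of the 4 not called, 2 had estimates below 0 (lowest -0.17). Col5a2, a chain of the type V collagen that starts fibrils (ENSMUSG00000026042.16, GRCm38 chromosome 1, 45374321 to 45503282), stood at 1522, 1489, 1376 and 1309 CPM with AngII and at 410, 321, 296 and 314 CPM in controls. It rose 4.25-fold (log2 fold change 2.09 ± 0.13, adjusted p = 6.6e-07), with the 4 AngII libraries close together and far above the controls. Col3a1, the chain of type III collagen, stood at 8930, 5064, 6081 and 5722 CPM with AngII and at 2630, 1936, 1381 and 1766 CPM in controls and rose 3.34-fold (adjusted p = 0.000129). Col11a1, a minor fibril chain typical of cartilage, stood at 36.6, 11.7, 16 and 21.3 CPM with AngII and at 1.36, 1.2, 1.16 and 0.954 CPM in controls, from close to 1 CPM in every control to over 10 CPM in every AngII library (log2 fold change 4.19 ± 0.57, adjusted p = 0.000301).

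Basement membrane and short-chain collagens, the sheet-forming collagens that surround smooth muscle cells and endothelium, had 8 of 11 genes higher and none lower (median 1.21). Col4a2, a chain of the main type IV network, stood at 2354, 2134, 2598 and 2072 CPM with AngII and at 1097, 969, 895 and 1008 CPM in controls and rose 2.31-fold (adjusted p = 7.02e-06). The minor chains Col4a3 and Col4a4, which form a second type IV network, rose 3.23-fold (adjusted p = 0.00016) and 2.27-fold (adjusted p = 0.00032). Both chains ranged apart in the 2 groups, Col4a3 at 52 to 76.2 CPM with AngII and 18.5 to 26.9 CPM in controls. Col15a1 and Col18a1, the basement membrane collagens that carry endostatin-type domains, rose 3.07-fold and 2.04-fold. Fibril-associated, beaded and other collagens had 5 of 16 tested members higher, among them Col6a1, Col6a2 and Col6a3, the main chains of beaded type VI collagen, and none lower.

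Enzymes that make collagen rose in part. In the folding and hydroxylation list 10 of 21 genes were higher and none lower (median 0.38), a count of 6 without AngII replicate 5 and control replicate 3, and also 6 with library size only. P4ha1, the catalytic subunit of prolyl 4-hydroxylase, rose 2.12-fold (adjusted p = 0.000701). Plod2, the lysyl hydroxylase that prepares collagen ends for crosslinking, stood at 258, 197, 237 and 215 CPM with AngII and at 95.2, 92.7, 99 and 95.9 CPM in controls, and its 4 controls lay within a few CPM of each other (log2 fold change 1.25 ± 0.12, adjusted p = 2.15e-05). In the trimming and crosslinking list 10 of 12 genes were higher and none lower (median 1.05). Adamts2, which removes the amino-terminal propeptide, rose 2.17-fold (adjusted p = 0.00032). Lox, the lysyl oxidase that starts the crosslinks of collagen and elastin, stood at 696, 644, 662 and 834 CPM with AngII and at 248, 156, 142 and 155 CPM in controls (log2 fold change 2.02 ± 0.19, adjusted p = 1.46e-05). All 4 Lox-like genes were called higher as well, Loxl2 at 133 to 193 CPM with AngII and 47.4 to 68 CPM in controls.

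Elastic fibre genes had 11 of 22 members higher and none lower (median 0.63; 9 and 1 with library size only). Eln, which encodes the elastin that lets the aorta recoil (GRCm38 chromosome 5, 134702593 to 134747323), stood at 11809, 9896, 10776 and 12711 CPM with AngII and at 4378, 2420, 1893 and 1437 CPM in controls. The AngII libraries were even and the controls were not, spanning from 1437 to 4378 CPM, and the rise was 4.46-fold (log2 fold change 2.16 ± 0.29, adjusted p = 0.000284). Fbln5, a fibulin that guides elastin onto microfibrils, stood at 1729, 1766, 1413 and 1411 CPM with AngII and at 862, 735, 826 and 757 CPM in controls (adjusted p = 0.000209). Ltbp2, a microfibril protein of the latent TGF-beta binding family, rose 3.59-fold, at 286 to 410 CPM with AngII and 78.6 to 112 CPM in controls.

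Matricellular proteins, secreted proteins that tune how cells hold the matrix, had 14 of 33 members higher and 3 lower (median 0.64). Fn1, fibronectin, stood at 9515, 8389, 8184 and 6537 CPM with AngII and at 2387, 2660, 2632 and 2260 CPM in controls (log2 fold change 1.71 ± 0.12, adjusted p = 1.72e-06). Postn, periostin, a collagen-binding protein of loaded connective tissue, stood at 5445, 6152, 6956 and 4496 CPM with AngII and at 1718, 1534, 1559 and 1682 CPM in controls and rose 3.55-fold. Thbs1, thrombospondin 1, an activator of latent TGF-beta, stood at 876, 2625, 695 and 1132 CPM with AngII and at 80.5, 81.1, 134 and 70.2 CPM in controls, with replicate 2 far above the other 3 AngII libraries and these well above every control (log2 fold change 3.87 ± 0.46, adjusted p = 0.000106). Cthrc1, a secreted protein of matrix-producing fibroblasts, split the AngII libraries, at 44.8, 9.64, 13.1 and 43.5 CPM with AngII and at 2.44, 4.06, 1.1 and 1.29 CPM in controls, with replicates 1 and 5 high and replicates 2 and 4 lower (log2 fold change 3.64 ± 0.60, adjusted p = 0.00122). Ccn3, a growth-regulating member of the CCN family, stood at 3215, 4017, 3802 and 3220 CPM with AngII and at 1222, 1302, 1399 and 1393 CPM in controls (log2 fold change 1.42 ± 0.15, adjusted p = 5.13e-05). Igfbp7 and Mfge8, secreted proteins of the vessel wall that bind growth factors and elastin-rich matrix respectively, rose 1.87-fold and 2.17-fold. The 3 members that fell were Tnxb, Tgfbi and Spon1.

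Proteoglycans and hyaluronan genes had 7 of 32 members higher and 1 lower (4 and 1 with library size only, 6 and none without AngII replicate 5 and control replicate 3). Glycosaminoglycan synthesis genes, which build the sugar chains, had 8 of 35 higher and none lower (3 and 2 with library size only, 5 and none in the same omission). Bgn, biglycan, a small collagen-binding proteoglycan, stood at 13468, 12311, 14049 and 13071 CPM with AngII and at 7283, 7033, 6462 and 7212 CPM in controls (log2 fold change 0.92 ± 0.10, adjusted p = 3.55e-05). Cspg4, the NG2 proteoglycan of pericytes and immature smooth muscle, rose 1.55-fold (adjusted p = 0.00712). Chst3, which sulphates chondroitin, stood at 108, 114, 115 and 114 CPM with AngII and at 63.3, 59.2, 71.9 and 61.4 CPM in controls, and rose 1.76-fold. Sulf1, which trims sulphates off heparan chains, stood at 744, 835, 755 and 744 CPM with AngII and at 315, 306, 357 and 308 CPM in controls and rose 2.39-fold. Cemip, which breaks down hyaluronan, was almost unread in controls, at 3.1 to 8.44 CPM with AngII and 0 to 0.2 CPM in controls.

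Some proteases of the matrix rose as well. Plasminogen, cathepsin and serine protease genes had 9 of 24 members higher and none lower, metalloproteinases and their inhibitors 6 of 21 higher and 1 lower, and ADAM and ADAMTS proteases 6 of 22 higher and 2 lower. Prss23, a secreted serine protease, stood at 516, 508, 664 and 448 CPM with AngII and at 162, 179, 176 and 167 CPM in controls (log2 fold change 1.64 ± 0.14, adjusted p = 6.45e-06). Htra1, a serine protease that cuts fibronectin and proteoglycans, stood at 1181, 1160, 1129 and 1012 CPM with AngII and at 631, 567, 550 and 602 CPM in controls (log2 fold change 0.93 ± 0.07, adjusted p = 4.88e-06). Plat, tissue plasminogen activator, rose 1.99-fold (adjusted p = 0.000227). Adam12, a membrane protease of regenerating mesenchyme, stood at 14.2, 8, 20.9 and 21 CPM with AngII and at 1.24, 3.12, 1.1 and 1.2 CPM in controls, low in every control and several times higher in every AngII library (log2 fold change 3.26 ± 0.44, adjusted p = 0.000318). Of the inhibitors, Timp1 rose 3.75-fold, at 29.7 to 52.4 CPM with AngII and 9.65 to 13.5 CPM in controls, and Timp3, the inhibitor bound to the matrix, rose 1.62-fold (adjusted p = 9.38e-05). Mmp17, a membrane-anchored metalloproteinase of smooth muscle, rose 1.45-fold (adjusted p = 0.00428), while Mmp9, which digests gelatin and is abundant in leukocytes, was the member called lower.

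**Figure D2:**
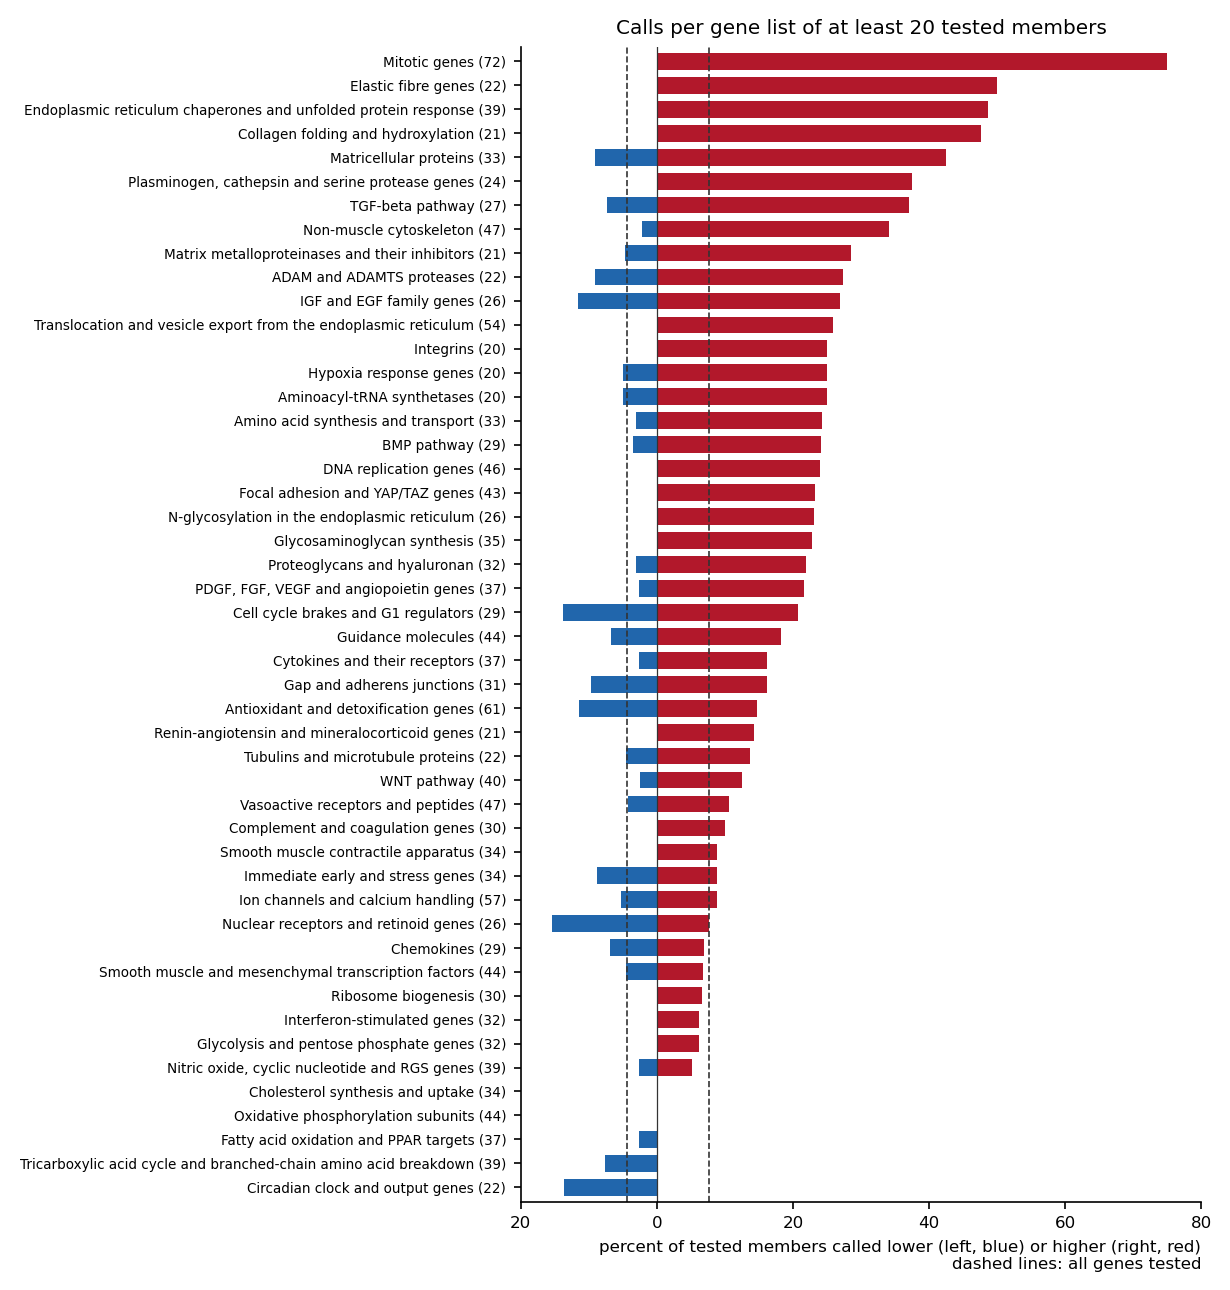
Share of the tested members of each gene list called higher (red, right) or lower (blue, left) with AngII, for lists of at least 20 tested genes (number in brackets); dashed lines mark 7.71% and 4.47%, the shares over all genes. Mitotic genes lead with 54 of 72 higher, and oxidative phosphorylation and cholesterol genes have no call.

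The secretory route moved with the matrix, by smaller steps. Endoplasmic reticulum chaperones and unfolded protein response genes had 19 of 39 members higher and none lower (median 0.38). Translocation and vesicle export genes had 14 of 54 higher and none lower (median 0.23). These counts lean on the scaling and on the number of libraries: with library size only they were 10 and 4, and without AngII replicate 5 and control replicate 3 they were 12 and 7. N-glycosylation genes, which build and attach sugar trees to new proteins, had 6 of 26 higher and none lower (2 under either of those settings).

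Single genes of the route were narrow within each group. Dnajc3, a co-chaperone that restrains the PERK kinase, stood at 160, 169, 155 and 154 CPM with AngII and at 121, 115, 115 and 110 CPM in controls (log2 fold change 0.47 ± 0.09, adjusted p = 0.00416). Lman1, a receptor that carries glycoproteins to the Golgi, stood at 150, 152, 151 and 150 CPM with AngII and at 101, 96.8, 91.2 and 89.4 CPM in controls (log2 fold change 0.67 ± 0.11, adjusted p = 0.00109). Kdelr3, which returns escaped chaperones to the endoplasmic reticulum, stood at 110, 83.3, 99.7 and 85.6 CPM with AngII and at 67.8, 60.1, 44.6 and 54.3 CPM in controls, with a wider spread (log2 fold change 0.74 ± 0.16, adjusted p = 0.00698). Arf4, a small GTPase of Golgi vesicles, rose 1.35-fold (adjusted p = 0.00584). Ergic1, a protein cycling between endoplasmic reticulum and Golgi, stood at 466, 531, 552 and 523 CPM with AngII and at 264, 252, 225 and 249 CPM in controls (log2 fold change 1.07 ± 0.09, adjusted p = 5.56e-06). Creb3l2, a membrane-bound transcription factor known to drive secretory genes in cartilage, stood at 403, 470, 474 and 480 CPM with AngII and at 324, 325, 317 and 289 CPM in controls (log2 fold change 0.54 ± 0.11, adjusted p = 0.00424). Of 33 amino acid synthesis and transport genes 8 rose and 1 fell (5 and 4 with library size only, 5 and 1 without AngII replicate 5 and control replicate 3). Of 20 aminoacyl-tRNA synthetases 5 rose and 1 fell. That balance turned to 1 and 3 with library size only and was 2 and none in that omission. Aldh18a1, which opens proline synthesis, rose 1.74-fold (adjusted p = 0.00502), Mthfd2, a mitochondrial folate enzyme, rose 2.54-fold (adjusted p = 0.0063), and Cars, the cysteinyl-tRNA synthetase, rose 1.62-fold (adjusted p = 0.0038).

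The letters of the secretory promoters are shown for 2 of these genes because several members that rose share a motif. The unfolded protein response factors ATF6 and XBP1 are known to bind the endoplasmic reticulum stress element (CCAAT and CCACG with 9 bases between them) and the unfolded protein response element TGACGTGG. Promoter windows run from 250 bases before to 50 after the RefSeq start (GRCm38.p6, the C57BL/6J reference and not the 129S6/SvEvTac genome), and both strands were searched. A match to TGACGTGG was found in 5 of the 12 export genes called higher that have a promoter in the table (41.7%), Copb1, Copb2, Kdelr3, Sec23a and Stx5a, and in 3.03% of the 33 not called higher. It was found in 0.607% of all 27025 promoters, of which 11941 belong to tested genes by symbol, in 2.11% of the 997 promoters of all genes called higher and in 0.704% of the 568 of genes called lower. A match to the stress element was found in 5 of 15 chaperone genes called higher (33.3%), Canx, Dnajc3, Hsp90b1, Hspa5 and Pdia6, and in 25% of the 16 not called higher. It was found in 0.13% of all promoters and in 0.142% of those of tested genes. None of the 45 export genes with a promoter had it. The 150 bases before the start of Dnajc3 (chr14:118937782-118937931, plus strand) and Kdelr3 (chr15:79516258-79516407, plus strand) read as follows, 5′ to 3′, with the match in capitals, on the strand given or as its reverse complement.

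Dnajc3: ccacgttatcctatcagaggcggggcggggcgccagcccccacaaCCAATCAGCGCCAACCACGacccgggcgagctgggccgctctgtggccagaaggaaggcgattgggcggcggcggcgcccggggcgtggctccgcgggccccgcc

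Kdelr3: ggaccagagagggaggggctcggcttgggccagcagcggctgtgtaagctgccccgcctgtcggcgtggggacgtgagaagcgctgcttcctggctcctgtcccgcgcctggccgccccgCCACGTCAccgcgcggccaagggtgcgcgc

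The Dnajc3 match starts 105 bases before the gene's start and reads along its strand, and the Kdelr3 match starts 30 bases before it and lies on the other strand. A match describes letters and not binding.

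Mitotic genes held the largest share of calls among lists of at least 20 tested genes: 54 of 72 rose and none fell (median 2.52). These genes build the spindle, condense chromosomes and drive the division of the cell. The mean log2 CPM over the list was 1.41, 2.42, 1.22 and 1.70 in the AngII libraries and -0.36, -0.38, -0.70 and -0.95 in the controls, so every AngII library lay above every control and replicate 2 stood highest. Ccnb1, cyclin B1, the partner of the mitotic kinase, stood at 2.68, 5.55, 1.95 and 2.88 CPM with AngII and at 0.249, 0.226, 0.148 and 0.0665 CPM in controls, close to nothing in every control (log2 fold change 4.22 ± 0.55, adjusted p = 0.000232). Ccna2, cyclin A2, stood at 7.56, 15.3, 5.97 and 8.16 CPM with AngII and at 0.588, 1.07, 1.08 and 0.51 CPM in controls (log2 fold change 3.50 ± 0.43, adjusted p = 0.000143). Top2a, the topoisomerase that untangles chromosomes, stood at 12.5, 31.6, 11.7 and 16 CPM with AngII and at 2.89, 1.98, 1.58 and 1.42 CPM in controls (log2 fold change 3.19 ± 0.43, adjusted p = 0.000285). Mki67, the coat protein of mitotic chromosomes that is used as a proliferation marker, stood at 17.2, 39, 14.3 and 21 CPM with AngII and at 3.5, 2.56, 1.84 and 2.17 CPM in controls (log2 fold change 3.18 ± 0.43, adjusted p = 0.000285). AngII replicate 2 was the highest library for each of these 4 genes.

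DNA replication genes act in the step before. Of these 46 genes, 11 rose and none fell (median 0.37; 9 and 4 with library size only). The mean log2 CPM over that list was 1.93, 2.42, 2.04 and 2.03 with AngII and 1.46, 1.51, 1.52 and 1.39 in controls. Mcm6, a subunit of the helicase that opens DNA, stood at 8.17, 14.6, 10.6 and 9.85 CPM with AngII and at 3.75, 3.18, 2.55 and 3.35 CPM in controls (log2 fold change 1.75 ± 0.16, adjusted p = 1.46e-05). Rrm2, the ribonucleotide reductase subunit that limits the supply of deoxynucleotides, stood at 7.22, 9.64, 6.39 and 7.31 CPM with AngII and at 1.94, 1.88, 2.7 and 2.88 CPM in controls (log2 fold change 1.70 ± 0.30, adjusted p = 0.00208). Among G1 regulators and brakes 6 of 29 rose and 4 fell (3 and 5 with library size only, 2 and 2 without AngII replicate 5 and control replicate 3). Ccnd1, cyclin D1, stood at 39.8, 87.1, 51.9 and 54.1 CPM with AngII and at 30.8, 29.1, 23 and 22.6 CPM in controls (adjusted p = 0.00494), and Cdkn1a, the p21 inhibitor, also rose, 1.89-fold (adjusted p = 0.00063). Cdkn1c, the p57 inhibitor of quiescent cells, fell, from 15.5 to 19.7 CPM in controls to 5.48 to 10.8 CPM with AngII (log2 fold change -1.02 ± 0.19, adjusted p = 0.00322).

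The promoters of the mitotic genes share letters too. CCAAT is bound by the factor NF-Y, and TTTGAA is the core of the cell cycle homology region through which repressor complexes hold mitotic genes silent in resting cells. Both motifs together were found in 63.0% of the 46 mitotic genes called higher that have a promoter in the table, in 35.7% of the 14 not called higher, in 7.12% of all promoters and in 5.1% of those of tested genes. Taken singly, CCAAT was found in 73.9% of those 46, in 64.3% of the 14 not called higher, in 37.9% of all promoters and in 38.4% of those of tested genes. TTTGAA was found in 76.1%, 42.9%, 18.1% and 12.3% of the same sets. The 2 motifs do not overlap each other in the windows printed here. The 150 bases before the start of Top2a (chr11:99024190-99024339), Ckap2l (chr2:129297213-129297362) and Mki67 (chr7:135716380-135716529), all on the minus strand of GRCm38.p6, are given 5′ to 3′ along the gene with matches on either strand in capitals.

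Top2a: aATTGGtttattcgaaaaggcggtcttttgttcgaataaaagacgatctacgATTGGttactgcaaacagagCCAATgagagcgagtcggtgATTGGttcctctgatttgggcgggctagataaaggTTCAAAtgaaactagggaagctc

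Ckap2l: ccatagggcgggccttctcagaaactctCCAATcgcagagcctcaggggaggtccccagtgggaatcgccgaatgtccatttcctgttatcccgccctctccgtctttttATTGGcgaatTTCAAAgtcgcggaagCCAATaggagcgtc

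Mki67: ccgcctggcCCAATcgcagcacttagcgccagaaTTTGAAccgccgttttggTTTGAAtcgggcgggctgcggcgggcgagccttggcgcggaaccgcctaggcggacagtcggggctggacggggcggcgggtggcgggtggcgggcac

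The Top2a window holds 4 matches to CCAAT and 1 to TTTGAA, the Ckap2l window 3 and 1, and the Mki67 window 1 and 2. Ckap2l, a spindle protein, itself stood at 3.9, 8.15, 3.76 and 4.48 CPM with AngII and at 0.746, 0.696, 1.08 and 0.266 CPM in controls (log2 fold change 2.86 ± 0.50, adjusted p = 0.00192).

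**Figure D3:**
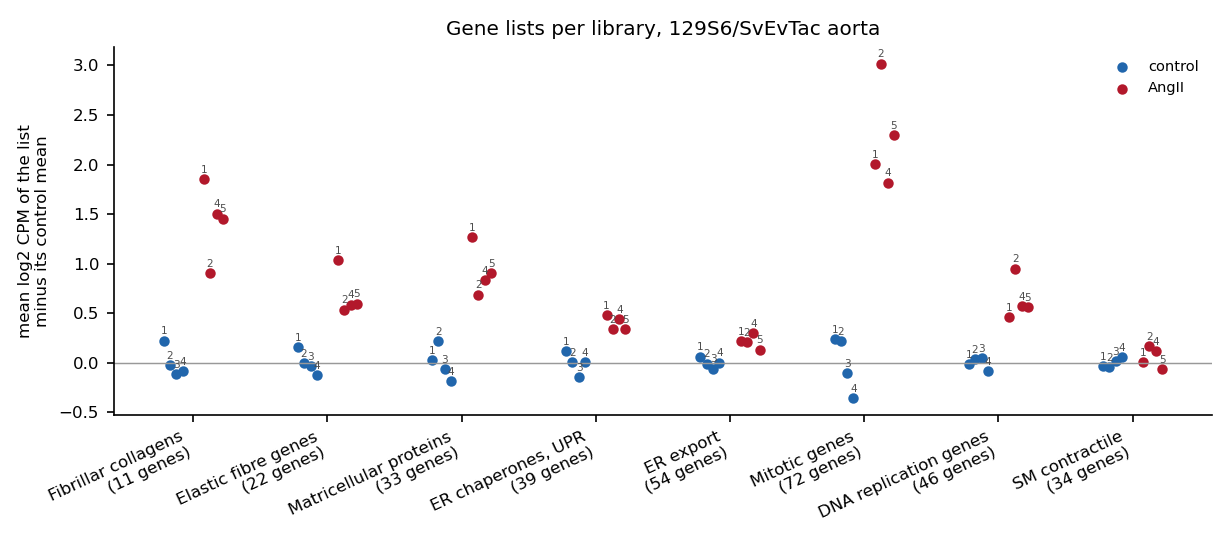
Mean log2 CPM of 8 gene lists in each library minus the mean of the 4 controls, AngII in red and controls in blue, with replicate numbers. Mitotic genes stand highest above the controls, with AngII replicate 2 at the top, and the contractile list overlaps between the groups.

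The contractile genes of smooth muscle gave few calls. Of 34 members 3 rose and none fell (8.82% higher, near the 7.71% of all genes), and the median log2 fold change was 0.01. The 3 were Hspb7, Ldb3 and Npnt, and Npnt is also counted among the matricellular proteins. No member was called without AngII replicate 5 and control replicate 3. With library size only none was higher and 1 was lower. Acta2, smooth muscle alpha-actin, stood at 16559, 19477, 20628 and 16080 CPM with AngII and at 17421, 17649, 16188 and 18305 CPM in controls, with overlapping groups (log2 fold change 0.06 ± 0.18, adjusted p = 0.872), and its estimate was below 0 with library size only (-0.10). Myh11, smooth muscle myosin, stood at 8357, 9467, 9317 and 7630 CPM with AngII and at 9846, 10166, 10471 and 10802 CPM in controls, with every AngII library below every control and no call (log2 fold change -0.25 ± 0.26, adjusted p = 0.603). Cnn1, calponin, stood at 2135, 2447, 2853 and 2185 CPM with AngII and at 1656, 1563, 1559 and 1584 CPM in controls, with every AngII library above every control and no call (log2 fold change 0.60 ± 0.24, adjusted p = 0.134). It was called with limma voom (adjusted p = 0.024), in the 8 libraries of this strain alone (adjusted p = 0.00413) and with an adipocyte score as covariate (adjusted p = 0.00959). Tagln, transgelin, stood at 8034, 9065, 9883 and 7830 CPM with AngII and at 7172, 7207, 7062 and 7449 CPM in controls, also with every AngII library above every control and no call (log2 fold change 0.27 ± 0.18, adjusted p = 0.393). The cytoskeleton shared by all cells moved more. Of 47 non-muscle cytoskeleton genes 16 rose and 1 fell (9 and 2 with library size only, and 7 and none without AngII replicate 5 and control replicate 3). Tpm4, a tropomyosin of non-muscle filaments, stood at 436, 488, 440 and 522 CPM with AngII and at 171, 173, 177 and 158 CPM in controls (log2 fold change 1.47 ± 0.15, adjusted p = 2.32e-05), and Myh9, non-muscle myosin, at 492, 632, 429 and 542 CPM with AngII and at 275, 259, 305 and 233 CPM in controls (log2 fold change 0.97 ± 0.13, adjusted p = 0.000308).

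Genes that tie cells to the matrix rose in part. Integrins had 5 of 20 members higher and none lower, 1 higher and 1 lower under library size only and 1 higher without AngII replicate 5 and control replicate 3. Itga5, the chain of the fibronectin receptor, stood at 926, 849, 1132 and 969 CPM with AngII and at 242, 247, 337 and 227 CPM in controls (log2 fold change 1.88 ± 0.26, adjusted p = 0.000355). Focal adhesion and YAP/TAZ genes had 10 of 43 higher and none lower. There were 6 higher and 1 lower under library size only and 6 higher without AngII replicate 5 and control replicate 3. Piezo1, a stretch-gated channel, stood at 71.6, 83, 68.7 and 82.8 CPM with AngII and at 38.6, 34.7, 43.1 and 34.8 CPM in controls (log2 fold change 1.02 ± 0.11, adjusted p = 5.96e-05).

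TGF-beta pathway genes had 10 of 27 members higher and 2 lower (median 0.32; 8 and 4 with library size only, 6 and 2 without AngII replicate 5 and control replicate 3). The 3 TGF-beta ligands rose, and so did Smad7, Fst, Fstl1, Fstl3, Ltbp1, Lrrc32 and Pmepa1. The 2 that fell were Tgfbr3 and Smad3. Tgfb2, one of the 3 ligands, stood at 380, 387, 328 and 418 CPM with AngII and at 160, 162, 190 and 172 CPM in controls (log2 fold change 1.15 ± 0.17, adjusted p = 0.000571), and Tgfb1 and Tgfb3 were called higher too. Tgfbr3, betaglycan, the co-receptor that presents TGF-beta 2, stood at 76.1, 61.4, 63.3 and 74.1 CPM with AngII and at 110, 140, 130 and 140 CPM in controls (log2 fold change -0.92 ± 0.15, adjusted p = 0.00105). Smad3, the transcription factor that carries the signal, stood at 38.8, 32.6, 36.8 and 44.2 CPM with AngII and at 55.9, 61.1, 57.8 and 60.3 CPM in controls (log2 fold change -0.62 ± 0.10, adjusted p = 0.00143). Fstl3, which binds and neutralises activins, stood at 297, 274, 396 and 340 CPM with AngII and at 159, 149, 140 and 149 CPM in controls (log2 fold change 1.13 ± 0.15, adjusted p = 0.000285).

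BMP pathway genes had 7 of 29 members higher and 1 lower (4 and 3 with library size only, 2 and 1 without AngII replicate 5 and control replicate 3). The ligands came first. Gdf6, a ligand of the joint and tendon branch of the family, stood at 16.4, 32.3, 13.4 and 26.5 CPM with AngII and at 1.63, 1.28, 2.09 and 1.26 CPM in controls (log2 fold change 3.82 ± 0.43, adjusted p = 7.38e-05), and Bmp4 at 91.5, 164, 94.4 and 124 CPM with AngII and at 68.1, 57.2, 63.6 and 45.6 CPM in controls (log2 fold change 1.02 ± 0.20, adjusted p = 0.00431). Smad6, the inhibitory SMAD that BMP signals induce, stood at 62.7, 83.6, 57.2 and 76.8 CPM with AngII and at 46.4, 45.3, 43.8 and 39.4 CPM in controls (log2 fold change 0.68 ± 0.14, adjusted p = 0.00663), a call missed when AngII replicate 5 and control replicate 3 were left out together (adjusted p = 0.0653). Of 13 hedgehog genes 2 rose (15.4%) and 1 fell (7.69%), against 7.71% and 4.47% of all genes. The counts were 1 and 1 with library size only, and 1 and none without AngII replicate 5 and control replicate 3. Ihh, Indian hedgehog, the ligand of growing cartilage (GRCm38 chromosome 1, 74945315 to 74951672), stood at 22, 17.3, 19.6 and 19.6 CPM with AngII and at 8.82, 6.66, 5.82 and 7.28 CPM in controls (log2 fold change 1.46 ± 0.20, adjusted p = 0.000348).

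Some genes known from cartilage and bone rose among these. In that marker list 7 of 15 tested members were higher and none lower (median 0.89). The count was 4 with library size only and 3 without AngII replicate 5 and control replicate 3. Its summed level was 2033 to 2946 CPM with AngII and 1329 to 1508 CPM in controls, most of it from Mgp. Sox9, Col2a1, Col10a1, Runx2 and Sp7 were not called, and Matn1 and Bglap were at 0 in all 8 libraries. Alpl, also not called, stood lower with AngII, at 12.6 to 16.4 CPM against 17.7 to 22.8 CPM in controls. Mgp, matrix Gla protein, an inhibitor of calcification, stood at 2413, 1568, 2179 and 2179 CPM with AngII and at 1065, 1163, 1059 and 1214 CPM in controls (log2 fold change 0.89 ± 0.14, adjusted p = 0.000877). Chad, chondroadherin, a cartilage collagen-binding protein, stood at 29.7, 70.1, 27.4 and 48.5 CPM with AngII and at 5.83, 2.92, 1.43 and 1.89 CPM in controls (log2 fold change 3.87 ± 0.92, adjusted p = 0.0128), and its call was missed without AngII replicate 5 and control replicate 3 (adjusted p = 0.0776). Spp1, osteopontin, stood at 10, 1.69, 7.55 and 6.44 CPM with AngII and at 0.61, 0.884, 0.738 and 0.643 CPM in controls (log2 fold change 3.15 ± 0.73, adjusted p = 0.0111), with AngII replicate 2 close to the controls, and it missed the call in the same omission (adjusted p = 0.0575) and with limma voom (adjusted p = 0.0732). Outside that list, Scx, scleraxis, the transcription factor of tendon cells, stood at 86.8, 64.8, 85 and 73.7 CPM with AngII and at 19.5, 24.4, 24.7 and 24 CPM in controls (log2 fold change 1.75 ± 0.20, adjusted p = 6.95e-05). Tppp3, which marks tendon sheath cells, went the other way and fell (values below).

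Growth factors and their carriers moved in both directions. Igfbp2, a carrier of insulin-like growth factors, stood at 304, 197, 133 and 158 CPM with AngII and at 20, 21.2, 29 and 34.1 CPM in controls (log2 fold change 2.93 ± 0.26, adjusted p = 8.58e-06), and Igf1 itself at 119, 62.7, 109 and 129 CPM with AngII and at 32.7, 28.2, 20.7 and 17.5 CPM in controls (log2 fold change 2.08 ± 0.26, adjusted p = 0.00016). In the insulin-like and epidermal growth factor list 7 of 26 members rose and 3 fell. Btc, betacellulin, an EGF receptor ligand, was among the 3, at 6.36, 7.98, 5.62 and 5.56 CPM with AngII and at 18.1, 15.4, 15.9 and 20.1 CPM in controls (log2 fold change -1.45 ± 0.28, adjusted p = 0.00407). Grb14, an adapter that inhibits the insulin receptor, stood at 43.6, 41.8, 44.8 and 43.1 CPM with AngII and at 73.5, 76.6, 69.9 and 68.3 CPM in controls (log2 fold change -0.73 ± 0.10, adjusted p = 0.000285).

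The PDGF, FGF, VEGF and angiopoietin list had 8 of 37 members higher and 1 lower (6 and 4 with library size only, 4 and none without AngII replicate 5 and control replicate 3). Pgf, placental growth factor, stood at 25.8, 19.3, 21.3 and 19.7 CPM with AngII and at 3.75, 4.7, 5.15 and 3.82 CPM in controls (log2 fold change 2.30 ± 0.34, adjusted p = 0.00063), and Pdgfb, the platelet-derived ligand that recruits smooth muscle and pericytes, at 57.4, 63.5, 56.1 and 68 CPM with AngII and at 28.8, 36.7, 35.6 and 29.3 CPM in controls (log2 fold change 0.91 ± 0.09, adjusted p = 3.48e-05). Fgfr2 rose 1.81-fold (adjusted p = 0.00122). Angptl7, a secreted angiopoietin-like protein known from the eye's outflow tissue and cornea (GRCm38 chromosome 4, 148495183 to 148500460), stood at 84, 69.7, 99.3 and 57.4 CPM with AngII and at 14.6, 16, 12.3 and 16.7 CPM in controls (log2 fold change 2.38 ± 0.21, adjusted p = 1.01e-05). Aplp1, an amyloid precursor-like membrane protein best known in neurons (GRCm38 chromosome 7, 30434982 to 30445535), stood at 35.3, 32.7, 37.6 and 35 CPM with AngII and at 14.9, 14.3, 15.7 and 16.3 CPM in controls. Its groups were narrow, with means of 35.1 ± 2.01 CPM with AngII and 15.3 ± 0.876 CPM in controls (SD, n = 4 each), and it rose 2.3-fold (adjusted p = 2.94e-07). Slc16a4, a monocarboxylate transporter, stood at 9.86, 9.9, 7.95 and 8.17 CPM with AngII and at 2.1, 1.98, 1.22 and 2.42 CPM in controls (log2 fold change 2.22 ± 0.18, adjusted p = 4.88e-06).

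Genes of pressure control changed in some members. In the renin-angiotensin and mineralocorticoid list 3 of 21 members rose (14.3%, against 7.71% of all genes) and none fell. The 3 were Ace, Fkbp5 and Agtr2. Agtr2, the type 2 receptor, had very few counts and kept its call in only 2 of 8 omissions of a single library. Agtr1a, the type 1 receptor for AngII, stood at 9.9, 6.49, 10.7 and 7.73 CPM with AngII and at 8.05, 8.15, 6.63 and 7.36 CPM in controls and was not called (log2 fold change 0.21 ± 0.33, adjusted p = 0.761). Ace, the enzyme that makes AngII, stood at 1085, 1410, 1060 and 932 CPM with AngII and at 607, 512, 554 and 488 CPM in controls (log2 fold change 1.05 ± 0.17, adjusted p = 0.000902). Fkbp5, a chaperone of steroid receptors that corticosteroids induce, stood at 152, 228, 160 and 96.2 CPM with AngII and at 24.5, 27.4, 55.5 and 47.1 CPM in controls (log2 fold change 2.04 ± 0.33, adjusted p = 0.000996). Of 47 vasoactive receptors and peptides 5 rose (10.6%) and 2 fell (4.26%), and of 57 ion channel and calcium handling genes 5 rose (8.77%) and 3 fell (5.26%), all near the shares of all genes; with library size only 6 and 11 fell. Ptgis, prostacyclin synthase, rose 1.45-fold (adjusted p = 0.00336). Adra2a, an alpha-2 adrenergic receptor, stood at 1.58, 3.08, 1.08 and 2.6 CPM with AngII and at 9.07, 6.21, 11.3 and 8.81 CPM in controls (log2 fold change -2.08 ± 0.37, adjusted p = 0.00226). Gucy1a1, the alpha chain of the guanylate cyclase that senses nitric oxide, stood at 107, 121, 139 and 133 CPM with AngII and at 294, 276, 255 and 303 CPM in controls (log2 fold change -1.17 ± 0.26, adjusted p = 0.00788). Kcns3, a silent subunit of voltage-gated potassium channels, stood at 6.54, 5.6, 6.98 and 8.47 CPM with AngII and at 14.8, 20.9, 19.4 and 24.3 CPM in controls (log2 fold change -1.52 ± 0.17, adjusted p = 7.07e-05).

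Immune and endothelial lists differed in their share of calls. Of 25 macrophage markers tested 1 rose (4%, against 7.71% of all genes) and none fell. Their summed level was 1129 to 1373 CPM with AngII and 980 to 1217 CPM in controls, overlapping ranges. A large part of that sum was Cd9, at 444 to 576 CPM with AngII and 447 to 493 CPM in controls. Cd68, the macrophage sialomucin, stood at 11.2, 4.54, 9.33 and 11.9 CPM with AngII and at 7.1, 7.75, 5.65 and 3.46 CPM in controls, with overlapping groups (log2 fold change 0.63 ± 0.33, adjusted p = 0.26). Leukocyte adhesion genes had 0 of 15 members called by edgeR, with 3 at an unadjusted p below 0.05, 1 called by DESeq2 and 0 by limma voom, and all 15 estimates were above 0. Of 29 chemokines 2 rose and 2 fell, against 7.71% and 4.47% of all genes (1 and 2 with library size only, none and 1 without AngII replicate 5 and control replicate 3). Ccl11, eotaxin, which attracts eosinophils, stood at 4.15, 2.95, 4.35 and 5.07 CPM with AngII and at 21.9, 13.2, 13.6 and 10.1 CPM in controls (log2 fold change -1.83 ± 0.25, adjusted p = 0.000289). Of 37 cytokines and receptors 6 rose and 1 fell (4 and 2 with library size only, 2 and 1 without AngII replicate 5 and control replicate 3). The one that fell was Il11ra1, the interleukin 11 receptor, at 158 to 203 CPM with AngII and 242 to 303 CPM in controls (log2 fold change -0.57 ± 0.11, adjusted p = 0.00418). Of 22 endothelial markers 3 rose, Cdh5, Emcn and Erg, and none fell, with 21 estimates above 0 (2 and 1 with library size only, 1 and 1 without AngII replicate 5 and control replicate 3). They summed to 1566 to 4176 CPM with AngII and 1357 to 2017 CPM in controls, and the top value belonged to AngII replicate 2. Pecam1, the endothelial adhesion molecule CD31, stood at 373, 1125, 445 and 628 CPM with AngII and at 647, 454, 661 and 425 CPM in controls (log2 fold change 0.23 ± 0.28, adjusted p = 0.667). Emcn, endomucin, of veins and capillaries, stood at 36.8, 125, 28.6 and 53.7 CPM with AngII and at 18.1, 13.6, 21.2 and 14.1 CPM in controls (log2 fold change 1.87 ± 0.35, adjusted p = 0.00324), and without replicate 2 its log2 fold change was 1.23. The part of endothelial RNA in the mitotic and Thbs1 values of replicate 2 was not tested. Thbd, thrombomodulin, an anticoagulant receptor, rose in all 4 libraries alike, at 233, 254, 202 and 241 CPM with AngII and at 120, 118, 131 and 102 CPM in controls (log2 fold change 0.98 ± 0.11, adjusted p = 5.07e-05).

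**Figure D4:**
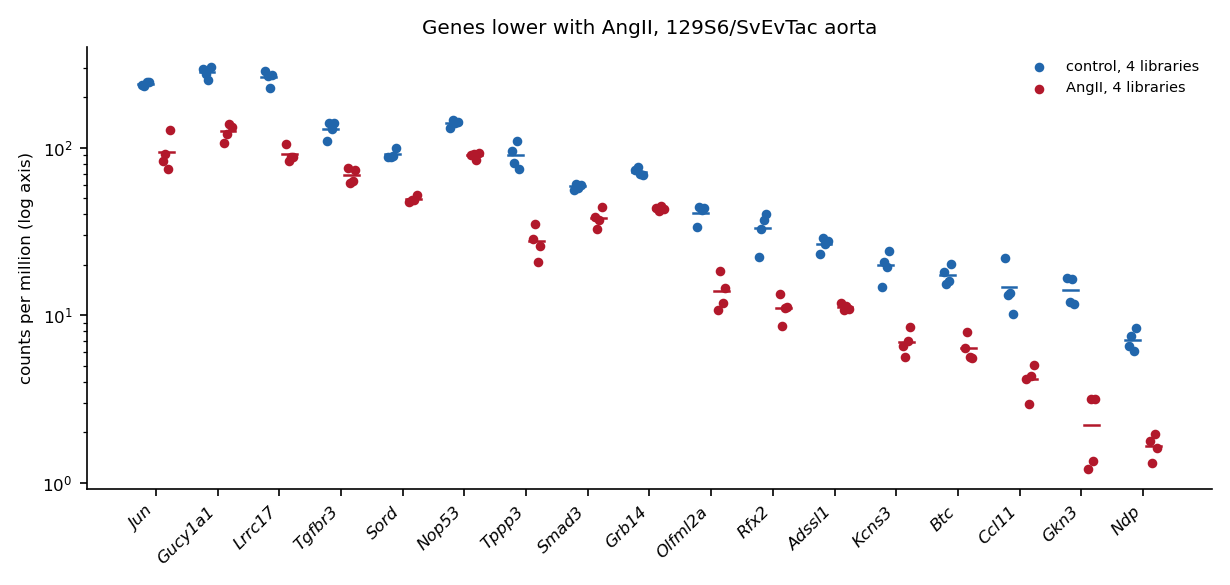
CPM (log axis) of 17 genes that fell with AngII in 129S6/SvEvTac aorta. Each point is 1 library, 4 with AngII in red and 4 controls in blue, with a line at the group mean. Every AngII point of a gene lies below all its control points; Gkn3 and Ndp, at the right, are the rarest.

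The falls had a smaller median size than the rises, as given above. Gkn3, a gastrokine family gene (ENSMUSG00000030048.5, GRCm38 chromosome 6, 87383256 to 87388935), stood at 1.2, 3.16, 1.34 and 3.14 CPM with AngII and at 16.7, 12, 16.4 and 11.6 CPM in controls (log2 fold change -2.67 ± 0.33, adjusted p = 0.000152). Ndp, norrin, a ligand of the WNT receptor Frizzled 4, stood at 1.78, 1.31, 1.95 and 1.61 CPM with AngII and at 6.58, 7.49, 6.1 and 8.43 CPM in controls (log2 fold change -2.10 ± 0.24, adjusted p = 8.16e-05). Tppp3, a tubulin polymerisation protein that marks tendon sheath cells, stood at 28.4, 35.1, 20.8 and 26 CPM with AngII and at 96, 81.6, 110 and 74.8 CPM in controls (log2 fold change -1.71 ± 0.23, adjusted p = 0.000285). Secreted matrix-type proteins were among the falls as well. Lrrc17, a secreted leucine-rich repeat protein, stood at 105, 83.7, 88.1 and 87.7 CPM with AngII and at 289, 267, 228 and 273 CPM in controls (log2 fold change -1.54 ± 0.20, adjusted p = 0.000256), and Olfml2a, an olfactomedin family protein, at 10.7, 18.4, 11.8 and 14.5 CPM with AngII and at 33.7, 44, 42.6 and 43.7 CPM in controls (log2 fold change -1.57 ± 0.20, adjusted p = 0.000227). Rfx2, a transcription factor of ciliated cells, stood at 13.4, 8.56, 11 and 11.2 CPM with AngII and at 22.2, 32.8, 36.9 and 40.2 CPM in controls (log2 fold change -1.58 ± 0.22, adjusted p = 0.000359).

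Some of the falls described were single genes of small-molecule metabolism. Adssl1, the muscle form of the enzyme that starts AMP synthesis from IMP, stood at 11.9, 10.7, 11.4 and 10.9 CPM with AngII and at 23.1, 28.7, 26.7 and 27.9 CPM in controls, with narrow groups (log2 fold change -1.25 ± 0.11, adjusted p = 6.6e-06). Sord, sorbitol dehydrogenase of the polyol pathway, stood at 47.3, 48.6, 48.9 and 52 CPM with AngII and at 88.6, 88.4, 89.8 and 99.9 CPM in controls (log2 fold change -0.90 ± 0.09, adjusted p = 2.15e-05). Upb1, the last enzyme of pyrimidine breakdown, stood at 3.61, 3.71, 2.22 and 1.86 CPM with AngII and at 9.43, 8.79, 9.12 and 9.38 CPM in controls (log2 fold change -1.69 ± 0.30, adjusted p = 0.00189). Antioxidant and detoxification genes split: 9 of 61 rose and 7 fell (7 and 13 with library size only, 7 and 3 without AngII replicate 5 and control replicate 3), the falls including the glutathione transferases Gstk1 (log2 fold change -0.87 ± 0.17, adjusted p = 0.00375) and Gstp1 (log2 fold change -0.47 ± 0.07, adjusted p = 0.000879). Sod3, the superoxide dismutase bound to the matrix, rose 1.7-fold (adjusted p = 0.0004). Oxidative phosphorylation subunits had 0 of 44 genes called by edgeR and by DESeq2 and 3 lower by limma voom, with 4 lower at an unadjusted p below 0.05 and 5 lower with library size only (median -0.06). Tricarboxylic acid cycle and branched-chain breakdown genes had 3 of 39 lower (7.69%, against 4.47% of all genes) and none higher. Fatty acid oxidation genes had 1 of 37 lower (2.7%) and none higher. In these 2 lists 4 and 2 genes were lower with library size only. Without AngII replicate 5 and control replicate 3, 2 and 0 were lower.

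Transcription factors and RNA genes gave the last group. Immediate early and stress genes had 3 of 34 members higher and 3 lower (3 and 5 with library size only), against 7.71% and 4.47% of all genes. Jun, a subunit of AP-1, stood at 83.7, 91.7, 75 and 128 CPM with AngII and at 237, 235, 246 and 246 CPM in controls, with 4 nearly equal controls (log2 fold change -1.35 ± 0.32, adjusted p = 0.0127). Nr4a3, an orphan nuclear receptor induced by hormones and stretch, stood at 65.9, 57.2, 30.6 and 66.9 CPM with AngII and at 5.65, 9.8, 13.8 and 11.4 CPM in controls (log2 fold change 2.44 ± 0.45, adjusted p = 0.00276), and Maff, a small Maf factor, at 58.6, 57.4, 59.1 and 71.5 CPM with AngII and at 23.3, 26.2, 26 and 28 CPM in controls (log2 fold change 1.25 ± 0.18, adjusted p = 0.000414). Nop53, a factor of ribosome assembly, stood at 90.8, 91.7, 85 and 93 CPM with AngII and at 131, 147, 141 and 142 CPM in controls (log2 fold change -0.64 ± 0.07, adjusted p = 5.13e-05), and Snhg8, a host gene of a small nucleolar RNA, fell 1.59-fold (adjusted p = 0.000325).

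Whether the response differed from that of C57BL/6J was tested as the AngII effect in 129S6/SvEvTac minus the effect in C57BL/6J, which are fitted on separate controls. Over all genes, 1706 differences were called (9.96%), 792 of them higher in 129S6/SvEvTac (4.62%) and 914 lower (5.34%). Of the 1321 genes that rose in 129S6/SvEvTac, 365 were not called in C57BL/6J, where 21.8% of all genes rose and 17.1% fell, and for 112 of those 365 the difference was called. Of the 766 that fell, 194 were not called in C57BL/6J, and the difference was called for 25 of them. Among all rises the difference made the effect larger in 129S6/SvEvTac for 169 genes and smaller for 130. The rises were picked by the 129S6/SvEvTac effect, which also enters the difference, so that split is tilted toward larger effects here. The count of differences depends on single libraries: it was 2990 without C57BL/6J AngII replicate 3 and 1039 without 129S6/SvEvTac control replicate 2.

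**Figure D5:**
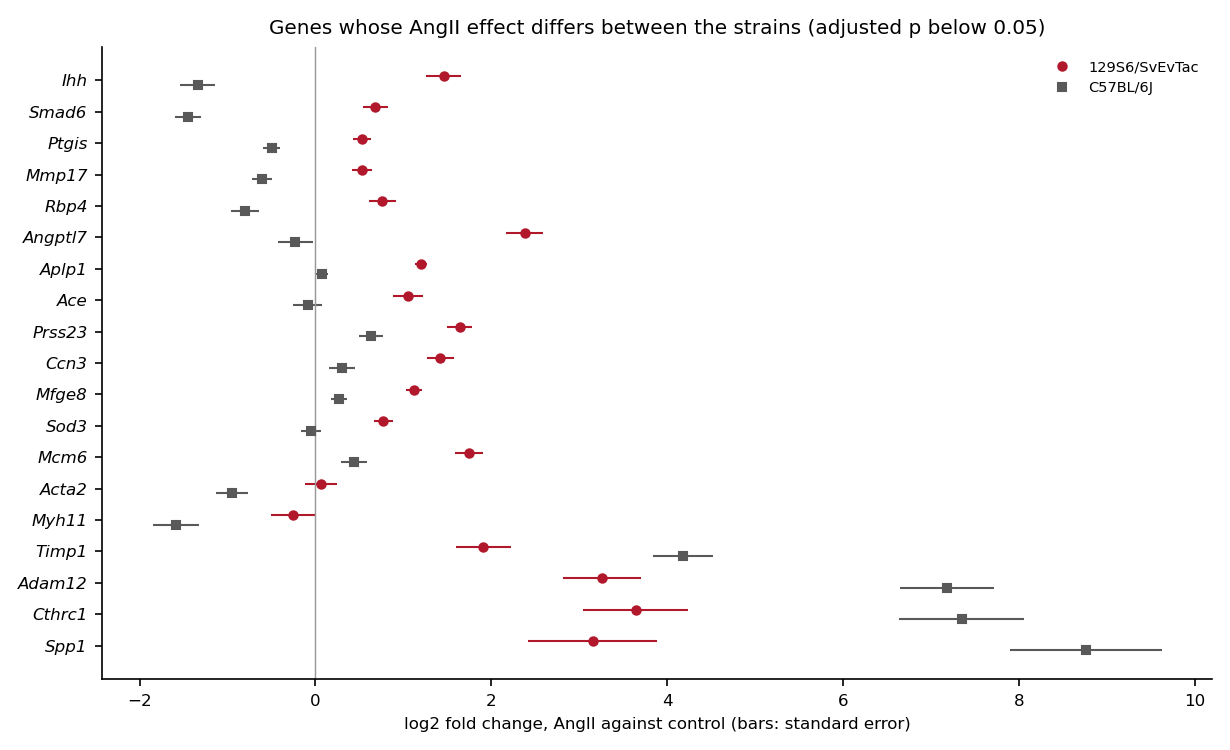
Log2 fold change of AngII against control in 129S6/SvEvTac (red circles) and C57BL/6J (grey squares) for 19 genes whose effects differed between the strains; bars are standard errors. From Ihh to Rbp4 the 2 strains lie on opposite sides of 0, and from Timp1 to Spp1 both rose and C57BL/6J lies further right.

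A first set rose in 129S6/SvEvTac and fell in C57BL/6J. For Ihh the C57BL/6J log2 fold change was -1.34 ± 0.20 (adjusted p = 0.000119) and the difference 2.80 ± 0.29 (adjusted p = 0.000224). Smad6 had -1.45 ± 0.15 (adjusted p = 4.41e-06) in C57BL/6J and a difference of 2.13 ± 0.20 (adjusted p = 0.000116). The same held for Ptgis, with a difference of 1.03 ± 0.14 (adjusted p = 0.00117), and Mmp17, with 1.15 ± 0.15 (adjusted p = 0.000848). Rbp4, the carrier of retinol, stood at 268, 218, 262 and 238 CPM with AngII and at 153, 159, 137 and 135 CPM in controls (log2 fold change 0.76 ± 0.15, adjusted p = 0.00533), with a difference of 1.56 ± 0.22 (adjusted p = 0.00117).

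A second set rose here while the C57BL/6J effect was not called. Angptl7 gave -0.23 ± 0.20 (adjusted p = 0.401) in C57BL/6J and a difference of 2.61 ± 0.29 (adjusted p = 0.000409). Aplp1 had 0.07 ± 0.07 (adjusted p = 0.43) there and a difference of 1.13 ± 0.09 (adjusted p = 5.38e-05). Ace, Ccn3, Sod3 and Pdgfb differed by 1.15, 1.12, 0.81 and 0.77 on the log2 scale. Among matrix genes Col18a1 differed by 0.78, Fbln5 by 0.79, Igfbp7 by 0.86 and Chst3 by 1.02, and the BMP and activin genes Bmp4 and Fstl3 by 1.15 and 1.16. Prss23, Mfge8 and Mcm6 were called higher in both strains, and the effect here was larger by 1.02, 0.85 and 1.31.

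A further set rose in both strains and less here. Spp1 gave 8.76 ± 0.86 (adjusted p = 3.64e-06) in C57BL/6J and a difference of -5.61 ± 1.03 (adjusted p = 0.00501). Adam12 and Cthrc1 had 7.18 ± 0.53 (adjusted p = 6.41e-07) and 7.35 ± 0.71 (adjusted p = 3.17e-06) there, with differences of -3.92 ± 0.63 (adjusted p = 0.00247) and -3.71 ± 0.82 (adjusted p = 0.0126). Timp1 differed by -2.27 ± 0.43 (adjusted p = 0.00581) and Rrm2 by -1.83 ± 0.42 (adjusted p = 0.0146). Igf1 differed by -1.20 ± 0.36 (adjusted p = 0.0439), a call missed in 13 of 16 omissions of a single library (adjusted p up to 0.0973). Among lists, the effect was lower here for 27 of 72 mitotic genes, 22 of 46 DNA replication genes and 16 of 25 macrophage markers, and it was higher here for 1 mitotic and 1 replication gene. In C57BL/6J 71 of the 72 mitotic genes, 40 of the 46 replication genes and 20 of the 25 macrophage markers rose. Adipocyte markers moved with them there, 20 of 23 higher and 1 lower against none called here. The difference itself was called for only 1 of the 23 adipocyte markers, with the lower effect here. The part of adipocyte RNA in the differences of the other lists was not tested. Cd68 had 2.51 ± 0.35 (adjusted p = 5.22e-05) in C57BL/6J and a difference of -1.89 ± 0.47 (adjusted p = 0.0219), missed without 129S6/SvEvTac control replicate 2 (adjusted p = 0.0508).

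The contractile list differed in the opposite sense. In C57BL/6J 24 of 34 members fell and 1 rose, against none and 3 here, and the effect was higher in 129S6/SvEvTac for 19 of the 34 and lower for none. Acta2 differed by 1.01 ± 0.25 (adjusted p = 0.0207), a call missed without AngII replicate 5 and control replicate 3 (adjusted p = 0.0508), and Myh11 by 1.35 ± 0.36 (adjusted p = 0.0303), missed in 9 of 16 omissions of a single library (adjusted p up to 0.0616). Focal adhesion and YAP/TAZ genes had 10 higher and 14 lower members in C57BL/6J, and the effect was higher here for 13 of 43 and lower for 2. For the BMP pathway the effect was higher here for 8 of 29 members and lower for 2.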

How the data were processed

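Whole aorta RNA was aligned to GRCm38 with HISAT2 and quantified with StringTie on a Gencode annotation, per the labels' protocols; DESeq2 1.26.0 and R 3.6.2 are listed, without a role, in the submitters' processing notes. The table the authors deposited holds expected counts, 1 whole number per gene and library. The Gencode release, the strand setting and the step from StringTie to counts are not stated. Genes without a name in GENCODE M21 held at most 0.0431% of counts.

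Counts of all 16 libraries were fitted in edgeR 4.0.16 (R 4.3.3): filterByExpr with a minimum count of 10, TMM scaling, robust quasi-likelihood fit with 1 mean per group, and a call at an adjusted p below 0.05. Standard errors were computed as the size of the fold change on the log2 scale over the root of its F statistic. List means used log2 CPM with a prior count of 2. A list member counted in a list may also stand in another. The pipeline was tested on simulated data.

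The genes and the 72 lists were chosen with earlier results of these data known, so lists are described by counts and levels, and no p of a list is reported. Named genes follow a rule: the 20 largest changes and the 20 smallest p in each direction among called genes with no overlap between groups and a mean of 5 CPM or more in the higher one, up to 5 called members per list, the 10 clearest genes called in opposite directions in the strains, and a fixed panel. The text describes 116 of them, mostly ones whose call held in every omission of a library. Members given without values were called but not chosen for their size, and a few genes are not reported here.

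Since strand is not stated, counts of genes that share exon positions with another gene are uncertain: 713 of the 2087 called genes, and of those named Col3a1, Col4a2, Col4a3, Col15a1, Plod2, Lox, Loxl2, Eln, Ltbp2, Fn1, Thbs1, Igfbp7, Prss23, Timp3, Ergic1, Kdelr3, Arf4, Cars, Top2a, Ckap2l, Ccna2, Cdkn1a, Cdkn1c, Ccnd1, Tpm4, Tagln, Piezo1, Tgfb2, Tgfbr3, Bmp4, Fstl3, Spp1, Fgfr2, Ace, Gucy1a1, Ptgis, Il11ra1, Lrrc17, Jun and Snhg8.

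Depth was 42116120 to 121573945 counts. Gm42418, the largest gene model, took 1.98 to 7.24% of counts and mitochondrial genes 2.1 to 3.63%. No pair of libraries was identical. The labels do not state that replicate numbers pair the libraries. Deviations of same-numbered AngII and control libraries correlated at 0.111, -0.06 and 0.06, and those of other pairs at -0.174 to 0.198. These values show no pairing, but so few pairs cannot exclude it. Alternatives were RLE scaling, library size only (also without Gm42418), 2 other low-count filters, DESeq2 1.42.0, limma 3.58.1 voom with sample weights, the 8 libraries of this strain alone, a replicate block, muscle or adipocyte scores as covariates, thinning to equal totals, protein-coding genes only, and each library left out. Leaving out AngII replicate 5 and control replicate 3 together, the libraries with the most cardiac RNA, was chosen after seeing the data.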

Additional observations from a re-analysis of the deposited data

Results flagged for a closer look

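Among 232 groups of 4 libraries (the 116 genes described, each in AngII and in control libraries), and the totals, 13 held 1 library apart from the other 3 by Dixon's 95% criterion, which chance alone meets in about 1 of 20 groups. In controls these were Lox in replicate 1 (248 CPM), Thbs1 in replicate 3 (134 CPM), Adam12 in replicate 2 (3.12 CPM), Scx in replicate 1 (19.5 CPM, the low one), Olfml2a in replicate 1 (33.7 CPM, low) and Sord in replicate 4 (99.9 CPM). With AngII they were Chst3 in replicate 1 (108 CPM, low), Sulf1 in replicate 2 (835 CPM), Creb3l2 in replicate 1 (403 CPM, low), Ckap2l in replicate 2 (8.15 CPM), Fgfr2 in replicate 4 (153 CPM) and Maff in replicate 5 (71.5 CPM). The total of AngII replicate 5, 121573945 counts, was the last.

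The AngII effect differed between the strains, by edgeR's test of the difference, for 43 of the genes described. Values are 129S6/SvEvTac minus C57BL/6J log2 fold changes. Matrix genes with the higher effect in 129S6/SvEvTac were Col4a3 (1.09), Col4a4 (0.75), Col18a1 (0.78), Fbln5 (0.79), Ccn3 (1.12), Igfbp7 (0.86), Mfge8 (0.85), Bgn (0.50), Cspg4 (0.97), Chst3 (1.02), Htra1 (0.39), Prss23 (1.02) and Mmp17 (1.15). Matrix and protease genes with the lower effect were Lox (-0.88), Cthrc1 (-3.71), Adam12 (-3.92), Timp1 (-2.27) and Spp1 (-5.61). The genes described were chosen mostly for a call in 129S6/SvEvTac, and whole lists gave another balance. Higher and lower differences numbered 2 and 8 for proteoglycans, 3 and 6 for glycosaminoglycan synthesis and 1 and 4 for metalloproteinases. They numbered 2 and 6 for ADAM and ADAMTS proteases, 4 and 4 for matricellular proteins, 4 and 1 for elastic fibre genes and 3 and 1 for basement membrane collagens. In the secretory route the effect was higher for Ergic1 (0.76) and Creb3l2 (0.73) and lower for Lman1 (-0.58). Among replication genes it was higher for Mcm6 (1.31) and lower for Rrm2 (-1.83).

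Signalling genes with the higher effect were Smad6 (2.13), Bmp4 (1.15), Fstl3 (1.16), Ihh (2.80), Gdf6 (2.15), Pdgfb (0.77), Fgfr2 (0.94), Angptl7 (2.61), Ace (1.15) and Ptgis (1.03), and those with the lower effect were Smad3 (-0.55) and Igf1 (-1.20). Acta2 (1.01), Cnn1 (1.49), Tagln (1.14), Myh11 (1.35), Sod3 (0.81), Rbp4 (1.56) and Aplp1 (1.13) had the higher effect in 129S6/SvEvTac, and Cd68 (-1.89) the lower.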

How the results depend on the processing

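Of the 116 genes described, 112 kept their direction and their side of the threshold in every alternative except the replicate block and the omission of 2 libraries together. The exceptions were Spp1 and Cnn1, given above, and 2 uncalled genes that changed direction: Acta2 (-0.10 with library size only, -0.11 also without Gm42418, and -0.02 to 0.10 over single omissions, the lowest without AngII replicate 4) and Pecam1 (-0.20, without AngII replicate 2, to 0.40). Of the 43 strain differences 32 kept both and none changed direction. Calls of Col4a3, Col4a4, Lox, Bgn, Htra1, Lman1, Myh11, Smad3, Gdf6, Igf1 and Cd68 were missed in 1 to 13 of 16 single omissions. The 2 settings set aside cost more calls. With the replicate block 34 of the 116 genes and 26 of the 43 differences lost their call. In the omission of 2 libraries together 3 of the 116 genes (Smad6, Chad and Spp1) and 9 of the 43 differences did.

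The 2087 calls became 3325 with voom, 3260 with library size only without Gm42418 and 1037 without AngII replicate 5 and control replicate 3. The 1321 rises became 755 with library size only, 749 also without Gm42418, and 653 without those 2 libraries. The 766 falls became 2246 and 2511 with those scalings, 1218 with DESeq2, 1458 with voom, 1240 in the 8 libraries alone and 384 without the 2 libraries. Leaving out each library gave 1402 to 1599 calls, 864 (control replicate 2) to 978 rises (876 without control replicate 4) and 507 (control replicate 3) to 632 falls. With a replicate block 352 genes were called, 276 higher and 76 lower, and 290 differences, 127 higher and 163 lower; the samples share only a number.

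The 1706 differences became 2663 with DESeq2, 2682 with voom and 985 without the 2 libraries. The 792 higher ones became 1308 with voom and 398 without the 2 libraries, and the 914 lower ones 1518 with DESeq2, 1374 with voom and 587. Single omissions gave 1039 to 2990 differences, 446 to 1344 higher and 559 to 1646 lower. The causes were not tested. Genes under a few CPM, most mitotic genes in controls among them, rest on few counts.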

Other observations

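Other lists gave these counts with AngII in 129S6/SvEvTac, over the members tested, where 7.71% of all genes rose and 4.47% fell. Of 44 guidance molecules, which steer growing axons and vessels, 8 rose and 3 fell (7 and 7 with library size only, 5 and 2 without AngII replicate 5 and control replicate 3), and of 16 laminins and basement membrane linkers 5 rose and none fell (4 and 1, and 3 and none, in those settings). WNT pathway genes had 5 of 40 higher and 1 lower, which turned to 2 and 4 with library size only and was 1 and 1 without the 2 libraries. Notch pathway genes had 2 of 17 higher and 1 lower (2 and 2, and 1 and 1). Gap and adherens junction genes had 5 of 31 higher and 3 lower, which turned to 3 and 5 with library size only and 1 and 4 without the 2 libraries. Of 22 circadian clock genes 3 fell and none rose (4 falls with library size only and 2 without the 2 libraries). Of 26 nuclear receptor and retinoid genes 2 rose and 4 fell (1 and 8, and 1 and 3).

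Markers of cells outside the wall were measured too. All 7 red blood cell markers tested had estimates below 0 without a call, and their summed level was 286 to 839 CPM with AngII and 915 to 1785 CPM in controls. All 9 mesothelial markers had estimates below 0, with no call. Adipocyte markers had 21 of 23 estimates above 0 and no call, at 1284 to 3676 CPM with AngII and 1083 to 2223 CPM in controls.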
